A study of Capra hircus with 40 samples.

Results

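Ovaries of newborn Jining gray goats were compared with ovaries at month 2 by sequencing of their mature miRNAs. Of the 40 libraries of the series, 10 entered the comparison, 5 from ovary on day 1 after birth and 5 from ovary at month 2. Within an age, each ovary library came from a separately numbered female. The animals of both ages were kept on the same farm under like conditions, with no treatment or mutation given in the labels. The remaining libraries were ovary at months 4 and 6 and uterus at the same 4 ages, again with 5 libraries in each group. Total RNA was taken from tissue samples with TRIzol, so every cell type of the sampled piece contributed. Sequencing batches and dates are not given in the sources used here, and anything the libraries of an age share beyond their age cannot be told apart from it. The table held 427 miRNA entries, of which 317 had enough counts to be tested.

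A miRNA is a short RNA cut from a hairpin precursor. Either side of the hairpin, the 5p arm or the 3p arm, can be loaded into an Argonaute protein, and the seed bases near its 5′ end then pair with messenger RNAs, which are repressed. In ruminants the ovary of the newborn female holds its oocytes mostly in primordial follicles, and growing and antral follicles build up after birth. In this tissue miR-202 is known as a gonad miRNA, and the let-7 family is known across tissues for rising as cells leave proliferation.

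The day 1 libraries held 7539848 to 8405361 counts and the month 2 libraries 5719892 to 7387622. Across miRNAs, Spearman's rho between libraries was 0.894 to 0.985 within day 1, 0.937 to 0.987 within month 2 and 0.779 to 0.909 between the ages. The gonad miRNA miR-202-5p was at 27.5 to 7818 CPM (counts scaled to a common library total) in 19 of the 20 ovary libraries and at most at 0.954 CPM in the 20 uterus libraries. The library labelled ovary day 1 replicate 3 went against its label on this marker, with 2.61 CPM from 21 counts of miR-202-5p and 0 counts of miR-202-3p, which allows up to 0.373 CPM (counting error only). It gave 73.3% of its counts to miR-143-3p, and its rho with the rest of its group was at most 0.923. This library enters every value below unless stated, and for the miRNAs and lists described here the value without it is also given where leaving it out ended a call or moved a fold by over 1.5 times. In such bulk tissue a lower value can mean fewer cells of a type or less RNA per cell, and these cannot be told apart.

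On day 1 a few miRNAs took most of the counts, and by month 2 the counts were spread more evenly. The levels of miR-148a-3p, known to target the DNA methyltransferase DNMT1, were 124139, 186642, 43424, 200035 and 226620.0 CPM in day 1 replicates 1 to 5, and 26848, 28529, 39102, 37392 and 38107 CPM in month 2 replicates 1 to 5. The same replicate order is kept for all lists of values below. Every day 1 library lay above every month 2 library, with replicate 3 the lowest of day 1, and the log2 change was -2.48 ± 0.52 (SE; edgeR adjusted p = 0.000615). For miR-143-3p, a miRNA of smooth muscle and other mesenchymal cells, day 1 levels were 88444, 156515, 733103, 146470.0 and 151162 CPM and month 2 levels were 80527, 77360.2, 77886, 51796 and 55029.8 CPM. The ages did not overlap, but replicate 3 stood far above the rest of day 1. The change was -2.86 ± 0.69 (adjusted p = 0.00175) and -1.14 without that library, still called.

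The growth-promoting miR-21-5p, known to protect granulosa cells from apoptosis, was at 11894, 13003, 40535, 30136 and 20812 CPM on day 1 and at 3520.4, 5438, 6899, 2990.5 and 6958 CPM at month 2. All day 1 libraries were above all month 2 libraries, and the change was -2.94 ± 0.68 (adjusted p = 0.00131), or -2.09 without day 1 replicate 3. In the other direction, let-7a-5p was at 39214, 21796, 3099.7, 19585 and 18266 CPM on day 1 and at 109789, 110250.0, 73613, 75431 and 78205 CPM at month 2. It moved from rank 11 by mean share to rank 1, from 2.04% ± 1.28 to 8.95% ± 1.88 of counts (SD, n = 5). Close behind were let-7c-5p, from 1.74% ± 1.32 to 7.31% ± 1.41, and let-7b-5p, from 0.811% ± 0.482 to 5.21% ± 1.28. Over the same step miR-143-3p went from 25.5% ± 26.9 (13.6% ± 3.17 without day 1 replicate 3, n = 4) to 6.85% ± 1.39 of counts and miR-148a-3p from 15.6% ± 7.34 to 3.40% ± 0.582. The next in rank on day 1, miR-99a-5p and the HOX-embedded miR-10b-5p, kept mean shares of 6.73% and 6.20% on day 1 and 6.91% and 6.53% at month 2.

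**Figure D1:**
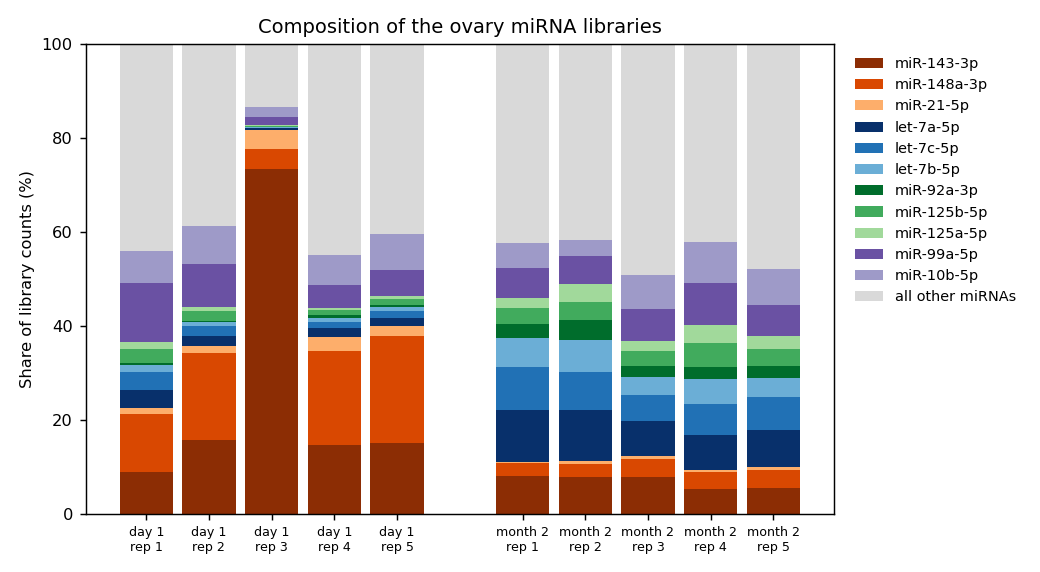
Each bar is an ovary library, from 5 goats on day 1 and 5 at month 2, and the coloured parts are the shares of library counts (%) of 11 abundant miRNAs. The orange and brown parts (miR-143-3p, miR-148a-3p, miR-21-5p) take more of every day 1 bar than of any month 2 bar, the let-7 parts in blue take more at month 2, and miR-143-3p fills 73.3% of day 1 replicate 3.

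The leading miRNA of a library took 29.4% ± 24.8 of the counts on day 1 and 9.29% ± 1.62 at month 2, and the 10 leading miRNAs together took 75.4% ± 8.88 and 60.01% ± 1.95 (SD, n = 5). Without day 1 replicate 3 the day 1 values were 18.4% ± 4.34 and 71.5% ± 1.92 (SD, n = 4). The leading miRNA was miR-148a-3p in 3 day 1 libraries and let-7a-5p in 3 month 2 libraries. Shannon diversity, which grows as counts are shared out over more miRNAs, was 4.11 ± 1.13 bits on day 1 and 5.04 ± 0.102 bits at month 2. Counts from 3p arms made up 51.7% ± 18.4 of a day 1 library and 27.3% ± 2.24 of a month 2 library. Without day 1 replicate 3, diversity was 4.61 ± 0.148 bits and the 3p share 44.1% ± 8.31 on day 1. In these 4 measures the ages did not overlap, and each had p = 0.00794 in a two-sided exact permutation test, the smallest p that 5 against 5 can give (0.00992 adjusted over 5 measures). With miR-143-3p left out of the counts, the 3p share was 34.4% ± 6.67 on day 1 and 21.9% ± 1.39 at month 2 and the share of the 10 leading miRNAs 69.5% ± 0.993 and 61.0% ± 1.89, again without overlap. At an equal depth of 5719892 counts a library held 373 ± 12.03 detected miRNAs on day 1 and 357 ± 8.76 at month 2 (adjusted p = 0.0476, exact permutation test), a call that was lost on leaving out each library other than day 1 replicate 3. The difference ran from -12.9 to -21.3 with each library left out.

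Which miRNAs changed between birth and month 2 was asked with edgeR's quasi-likelihood test on the counts, with p-values adjusted over all 317 miRNAs by the Benjamini-Hochberg method and a threshold of 0.05. Of these, 79 rose (24.9%) and 103 fell (32.5%), 57.4% in all. Rises were 1.84 at the median on the log2 scale, with 29 over 4-fold. The falls reached further, with a median of -2.14, 56 over 4-fold and 28 over 8-fold, against 2 rises over 8-fold. In CPM, 123 miRNAs (38.8%) did not overlap between the ages, 76 of them higher (24%) and 47 lower (14.8%) at month 2. Over all miRNAs tested the median lay at -0.16, or at 0.17 when library totals alone scaled the counts, which gave 87 rises and 66 falls. The log2 changes of miRNAs below are on the TMM scale and are not centred on that median. Levels in CPM, their sums and the overlap of the ages rest on library totals alone. The TMM factor of day 1 replicate 3 was 0.445, so a log2 change can differ from the step in mean CPM. Without day 1 replicate 3, 81 rose and 96 fell among 322 tested, and 163 of the 182 calls were also made, all 163 in the same direction.

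**Figure D2:**
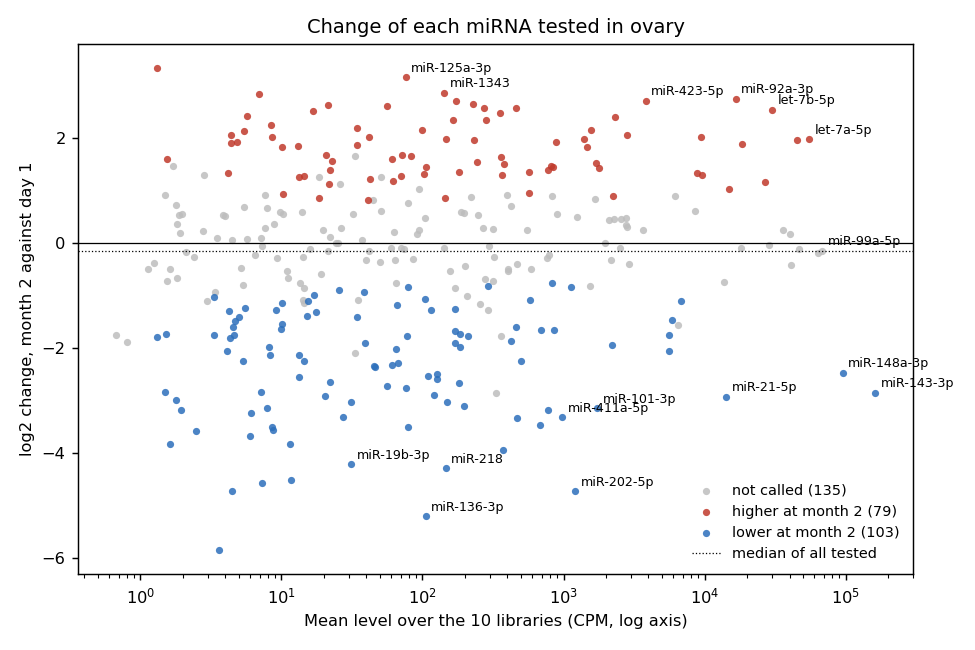
Each point is a miRNA tested in ovary, with its mean level over the 10 libraries (CPM, log axis) across and its log2 change from day 1 to month 2 upward. Red points rose (79), blue points fell (103) and grey points were not called (135), and the lowest blue points reach below any red point's height above 0.

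The largest falls at a mean level of at least 10 CPM were 14 miRNAs, from -5.21 to -3.15 on the log2 scale. Of these, 9 did not overlap between the ages, beside 38.8% of all miRNAs, though a choice by size favours that. Of the 14, 5 belong to the imprinted DLK1-DIO3 cluster: miR-136-3p, miR-411b-5p, miR-369-3p, miR-411a-5p and miR-381. That cluster makes up 44 of the 317 miRNAs tested at any level. The level of miR-136-3p, made from the strand opposite the retrotransposon-like gene RTL1, was 131, 234, 163, 201 and 283 CPM on day 1 and 4.06, 5.94, 9.61, 7.01 and 11.9 CPM at month 2. Every day 1 library stood more than 10-fold above every month 2 library, and the change was -5.21 ± 0.76 (adjusted p = 7.02e-05). Levels of miR-101-3p, known to target the histone methyltransferase EZH2, were 1174, 2287, 935, 5347 and 5526 CPM on day 1 and 253, 324, 522, 590.1 and 432 CPM at month 2. The change was -3.15 ± 0.75 (adjusted p = 0.00155), and day 1 replicates 4 and 5 were the high ones. Encoded in introns of the SLIT guidance genes, miR-218 was at 234, 148, 703, 138 and 110.3 CPM on day 1 and at 13.3, 32.2, 31.3, 24.8 and 26.6 CPM at month 2. All its day 1 libraries were above month 2, with replicate 3 the highest, and the change of -4.30 ± 0.76 (adjusted p = 0.000156) was -2.75 without that library.

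The 14 largest rises ran from 2.39 to 3.15 on the log2 scale. Of these, 13 did not overlap between the ages, beside 38.8% of all miRNAs, with the same limit. The steepest was miR-125a-3p, the lesser arm of a miRNA related to lin-4 of worms, at 8.36, 9.87, 4.73, 21.4 and 19.5 CPM on day 1 and at 120.4, 297, 101, 107 and 70.8 CPM at month 2. Its change was 3.15 ± 0.49 (adjusted p = 7.66e-05), and 2.59 without month 2 replicate 2, the highest library. Among abundant miRNAs, miR-92a-3p of the miR-17-92 cluster was at 4442, 3519, 406, 6996 and 4070.3 CPM on day 1 and at 29717, 41727, 23299, 26534 and 25432 CPM at month 2. Even the lowest month 2 library was over 3-fold above the highest of day 1, and the change was 2.74 ± 0.46 (adjusted p = 0.000115). For miR-423-5p the values were 848, 853, 199.7, 1401 and 1077 CPM on day 1 and 5519.8, 9116, 5663, 6258 and 7364 CPM at month 2. Again the ages were far apart, with a change of 2.70 ± 0.37 (adjusted p = 3.79e-05). For miR-320-3p, whose short hairpin is known to be made without Drosha, they were 783, 610.0, 259.7, 727 and 793 CPM and then 3428, 4235, 2837, 5379 and 4162 CPM, with a change of 2.39 ± 0.38 (adjusted p = 7.66e-05). All month 2 libraries were above all day 1 libraries.

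Other rises among the 14 were miR-1343 (2.86 ± 0.43), miR-296-3p (2.69 ± 0.43), let-7d-3p (2.64 ± 0.41), miR-671-3p (2.61 ± 0.44), let-7b-3p (2.60 ± 0.68), miR-195-3p (2.55 ± 0.43), let-7b-5p (2.53 ± 0.59), miR-25-5p (2.50 ± 0.44) and miR-328-3p (2.47 ± 0.44), with adjusted p from 7.66e-05 to 0.00309. The exception to the clear separation was miR-504. It was at 75.6, 66.7, 37.6, 275 and 93.3 CPM on day 1 and at 1003, 1229, 1009, 206 and 598 CPM at month 2. Month 2 replicate 4 lay below day 1 replicate 4, and the change was 2.57 ± 0.61 (adjusted p = 0.00155).

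The 2 arms of a hairpin come from the same transcript, and their ratio within a library does not depend on how libraries are scaled. Entries were paired as arms by name, and whether a name covers several gene copies, with arms from different transcripts, was not checked. The ratio of 3p to 5p counts was tested with limma in 93 hairpins, and it changed in 51 of them (54.8%), 29 toward the 3p arm (31.2%) and 22 toward the 5p arm (23.7%). The median size of a called change was 1.95 on the log2 scale of the ratio. Without day 1 replicate 3, 50 were called, 31 toward 3p and 19 toward 5p. The arm with more counts on day 1 had fewer at month 2 in 7 hairpins: miR-29b, miR-382, miR-423, miR-331, miR-30e, miR-455 and miR-424, of which miR-331 was not called.

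The gonad miRNA miR-202 showed the largest shift. Its 5p arm was at 565, 1184, 2.61, 7818 and 2009.8 CPM on day 1 and at 52.2, 145, 115, 65.2 and 134 CPM at month 2. It fell by 4.74 ± 1.05 on the log2 scale (adjusted p = 0.000886). All of day 1 but replicate 3 lay above month 2, and without replicate 4, the highest, the change was -3.54. The 3p arm was at 7.99, 9.16, 0, 38.7 and 16.9 CPM on day 1 and at 42.6, 81.6, 80.4, 42.7 and 98.9 CPM at month 2, without overlap (2.01 ± 0.84, adjusted p = 0.0469). Leaving out any of 6 libraries (day 1 replicates 1, 2 and 5, month 2 replicates 2, 3 and 5) ended the call of miR-202-3p, and without day 1 replicate 4 its change was 2.67. As a share of both arms the 3p arm was 1.40%, 0.768%, 0%, 0.493% and 0.833% on day 1 and 45.0%, 36.1%, 41.1%, 39.6% and 42.5% at month 2, where the 0 of replicate 3 rests on 21 counts and allows up to 14.3%. The log2 ratio rose by 6.09 ± 0.68 (limma adjusted p = 6.26e-07), and the shares at the 2 ages were far apart in all libraries. In ovary at months 4 and 6 the mean 3p share was 36.5% ± 14.45 and 33.9% ± 25.04 (SD, n = 5). The libraries of these ages were spread more widely than those of month 2, at 40.8% ± 3.33.

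In the X-linked miR-424, a miR-15/miR-16 relative known to target cell cycle genes, the leading arm changed. The 3p share was 44.0%, 16.3%, 18.2%, 15.0% and 12.9% on day 1 and 94.3%, 97.2%, 84.2%, 93.4% and 88.3% at month 2. Day 1 replicate 1 was the highest of its age and still far below month 2, and the log2 ratio rose by 5.69 ± 0.78 (limma adjusted p = 6.23e-06). Its 5p arm, at 339, 584, 67.2, 1298 and 1160.4 CPM on day 1 and at 36.8, 16.1, 109.6, 28.9 and 86.3 CPM at month 2, fell by 3.96 ± 0.72 (edgeR adjusted p = 0.000188), with day 1 replicate 3 inside the month 2 range. The 3p arm went the other way, from 266, 114, 14.9, 229 and 172 CPM to 615, 562, 585, 411 and 649 CPM, a rise of 1.64 ± 0.49 (adjusted p = 0.00791) without overlap. Uterus libraries had mean 3p shares of miR-424 of 20.1% ± 6.97 on day 1 and 76.6% ± 35.9 at month 2 (SD, n = 5), the latter widely spread.

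The same exchange, a 5p arm that fell and a 3p arm that rose, was called in 7 hairpins: miR-202, miR-424, miR-455, miR-106b, miR-30b, miR-127 and miR-28. For miR-455, which lies in a collagen gene, the 3p share was 44.6%, 34.1%, 13.8%, 32.0% and 31.3% on day 1 and 91.2%, 89.1%, 79.6%, 82.4% and 80.1% at month 2. The ages did not overlap (log2 ratio 3.75 ± 0.58, limma adjusted p = 1.86e-05). The 3p share of miR-106b, made from an intron of the replication gene MCM7, was 93.9%, 90.6%, 63.7%, 87.0% and 87.4% on day 1, with replicate 3 the lowest, and 98.8% to 99.7% at month 2 (4.39 ± 0.62, adjusted p = 6.23e-06). Its 5p arm fell by 2.37 ± 0.55 while its 3p arm rose by 1.82 ± 0.39 (edgeR adjusted p = 0.00131 and 0.000635). In miR-30b the 3p arm stayed the lesser one, at 1.10% to 3.05% on day 1 and 12.2% to 31.8% at month 2 (3.75 ± 0.52). In miR-127 it was the main arm throughout, at 98.2% to 99.4% and then at 99.8% or more in every month 2 library (3.51 ± 0.52). The rise of miR-127-3p itself was small (1.02 ± 0.39, adjusted p = 0.0321), and the call was lost on leaving out any of the 10 libraries other than day 1 replicate 5. With each left out the value ran from 0.82 to 1.22.

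The opposite exchange, a 5p arm that rose and a 3p arm that fell, was called only for let-7a among the 93 hairpins. Its lesser 3p arm was at 7.38, 12.4, 6.47, 30.5 and 13.5 CPM on day 1 and at 4.06, 8.74, 7.72, 4.09 and 6.56 CPM at month 2, with overlap (-1.54 ± 0.50, adjusted p = 0.0135). In most shifts toward 5p the 3p arm fell or the 5p arm rose alone. In miR-29b, whose family is known to repress collagen genes, the 3p share was 66.3%, 92.7%, 96.0%, 96.6% and 92.1% on day 1 and 38.9%, 57.1%, 36.1%, 59.7% and 52.4% at month 2. Day 1 replicate 1 was the lowest of its age, and no month 2 library reached it (-3.46 ± 0.71, limma adjusted p = 0.000384, and -4.07 without that replicate). The 3p share of miR-382, of the DLK1-DIO3 cluster, was 48.4%, 62.9%, 43.2%, 64.3% and 68.0% and then 12.3%, 12.8%, 17.98%, 16.7% and 17.4%, without overlap (-2.91 ± 0.48, adjusted p = 3.96e-05). Here miR-382-3p fell by 2.67 ± 0.45 (edgeR adjusted p = 0.000115), and miR-382-5p was at 0.29 and not called. For miR-148a the mean 3p share was 99.8% on day 1 and 99.1% at month 2, a small step in share but a fall of 2.42 ± 0.44 in the log2 ratio. The ratio also fell in let-7a (by 3.49 ± 0.89), let-7c (by 3.07 ± 0.80) and miR-374b (by 2.94 ± 0.53), whose 3p arms were minor at both ages (limma adjusted p = 0.00271, 0.00288 and 9.91e-05).

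**Figure D3:**
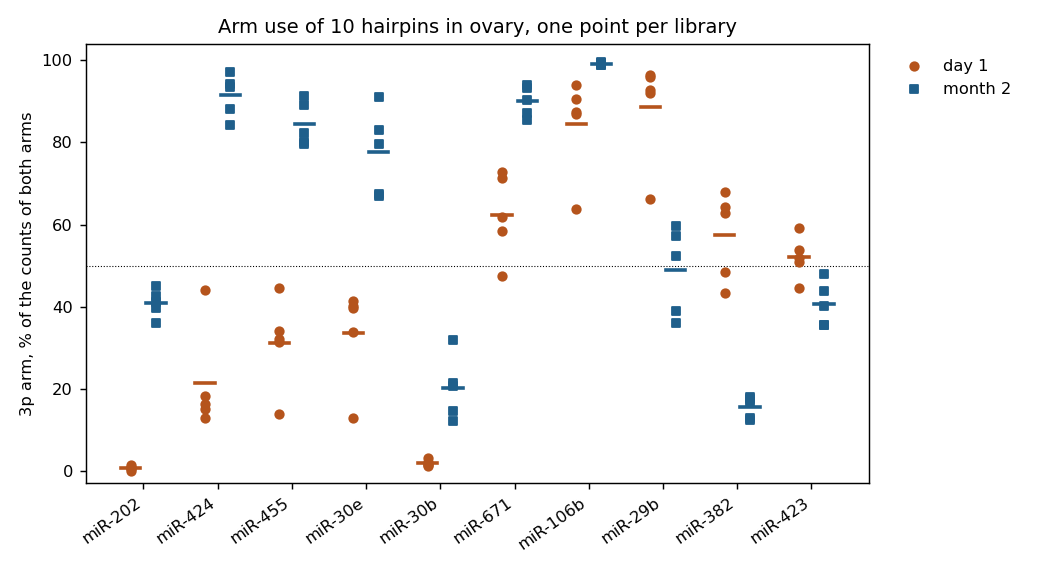
For 10 hairpins the share of the 3p arm in the counts of both arms (%) is plotted for each ovary library, with circles for day 1, squares for month 2, short lines for the means and a dotted line at 50%. In miR-424, miR-455 and miR-30e all day 1 circles lie below 50% and all month 2 squares above it, and miR-202 goes from at most 1.40% on day 1 to between 36.1% and 45.0% at month 2.

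Among the 29 shifts toward 3p, the 5p arm alone fell in 8, the 3p arm alone rose in 7 and both arms changed in opposite directions in 7. Among the 22 toward 5p, the 3p arm alone fell in 7 and the 5p arm alone rose in 6. The arm that was the lesser one on day 1 gained share in 24 of the 51 called hairpins and lost share in 27. Counted by single miRNAs, 42 of 132 tested 3p entries rose and 38 fell, while 28 of 138 5p entries rose and 52 fell, with medians of 0.06 and -0.29. The entries whose names give no arm, 47 in number, had 9 rises and 13 falls.

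The let-7 family, which the RNA-binding protein LIN28 holds back in immature cells, had 15 tested entries, of which 8 rose and 3 fell, with a median of 1.27. Over all miRNAs 24.9% rose, 32.5% fell and the median was -0.16. Rises were let-7a-5p (1.97 ± 0.52), let-7e-5p (2.01 ± 0.59), let-7d-5p (1.98 ± 0.47), let-7c-5p (1.95 ± 0.63), let-7b-5p and the 3p arms of let-7b, let-7d and let-7e, all 8 without overlap between the ages. The falls were let-7a-3p, let-7i-3p and miR-98-5p, all with overlap. The abundant let-7f-5p, let-7g-5p and let-7i-5p were not called, at 0.16 ± 0.32, 0.25 ± 0.36 and -0.12 ± 0.29. For example, let-7b-5p was at 14891, 8318, 1294, 8529 and 7495 CPM on day 1 and at 61219, 68231, 39022, 52089 and 40059.9 CPM at month 2. In contrast let-7i-5p was at 56644, 49503, 10090.0, 56086 and 51580.5 CPM on day 1 and at 41155, 42553, 61439, 44229 and 56274 CPM at month 2, where apart from replicate 3 the ages shared a range. The family members differ by a few bases, and how reads matching several members were assigned is not stated, so their split is uncertain. Without day 1 replicate 3 the list had 8 rises and 4 falls, and with library totals alone 8 rises and 1 fall.

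The miR-99/miR-100 and miR-125 families, of which miR-125 is the counterpart of lin-4, the timing miRNA of worms, had 6 rises and 0 falls among 9 tested entries (median 1.28), beside 24.9% rises and 32.5% falls over all miRNAs. Levels of miR-125a-5p were 15596, 9780.3, 537, 5133 and 5834 CPM on day 1 and 21908, 39021, 20679, 37705 and 27716 CPM at month 2. The ages did not overlap (1.88 ± 0.52, adjusted p = 0.00446). The related miR-125b-5p rose by 1.15 ± 0.42 (adjusted p = 0.0259) and miR-99b-5p by 1.28 ± 0.28 (adjusted p = 0.000713), while miR-99a-5p was at -0.16 ± 0.34 and miR-100-5p at -0.10 ± 0.23, neither of them called, and both slightly above 0 with library totals (0.037 and 0.20). The call of miR-125b-5p was lost without day 1 replicate 3 or 4 or month 2 replicate 1, 2 or 4, at 0.83 without the last of these, and without day 1 replicate 3, 5 of these entries rose.

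Genes that lie close together are often made from a shared transcript, and RefSeq's goat annotation (assembly ARS1.2) gave 35 groups of neighbouring miRNA genes, each within 10 kb of the next, with at least 2 tested entries. In 11 of them calls went in both directions, in 8 only upward, in 12 only downward and in 4 there was no call. The group of miR-99b and let-7e rose in 4 of 4 entries, at 1.27 to 2.01. In the group of let-7c and miR-99a only let-7c-5p rose, and miR-99a-5p, miR-99a-3p and let-7c-3p were not called. The group of miR-363, miR-20b, miR-18b and miR-106a fell in 3 of 3 tested entries, at -1.49 to -1.24. With library totals alone miR-106a-5p, miR-20b and miR-363-3p were not called (edgeR adjusted p = 0.0647, 0.220 and 0.0692). Mean levels of miR-106a-5p were low, at 6.47 CPM on day 1 and 2.92 CPM at month 2. These counts stand beside 24.9% rises and 32.5% falls over all miRNAs. In the group of miR-222 and miR-221, known for repressing the cell cycle inhibitor p27, 2 of 3 entries rose: miR-222-3p by 1.95 ± 0.35 and miR-221-3p by 1.49 ± 0.41 (adjusted p = 0.000158 and 0.00422).

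The proliferation-promoting miR-17-92 cluster, taken with its paralogous clusters, parted by member. Of 15 tested entries 6 rose and 6 fell, beside 24.9% and 32.5% of all miRNAs. In the group that gives the cluster its name, miR-92a-3p rose while miR-19b-3p was at 24.7, 30.8, 41.7, 139 and 53.9 CPM on day 1 and at 1.31, 1.57, 6.50, 2.19 and 11.05 CPM at month 2. Every day 1 library lay above every month 2 library, with replicate 4 the highest, and the change was -4.22 ± 0.80 (adjusted p = 0.000267), and -4.85 without month 2 replicate 5. From the same transcript miR-20a-5p fell by 1.66 ± 0.64 (adjusted p = 0.0332), a call lost without day 1 replicate 4 or 5 or month 2 replicate 1, 2 or 4, and at -0.96 without day 1 replicate 4. In the miR-106b, miR-93 and miR-25 group, miR-25-3p rose by 1.33 ± 0.42 (adjusted p = 0.0106), miR-25-5p and miR-106b-3p rose, miR-106b-5p fell, and miR-93-5p was at 0.55 ± 0.53 and not called. The list's median of 0.52 was -0.35 without day 1 replicate 3, when 6 rose and 7 fell among 16, and with library totals 6 rose and 2 fell.

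The miR-15/miR-16 family is known to restrain the cell cycle. Of its 9 tested entries 2 rose and 2 fell, beside 24.9% and 32.5% of all miRNAs. Those that rose were 3p arms, miR-195-3p and miR-424-3p, and those that fell were the 5p arms miR-15a-5p and miR-424-5p. Levels of miR-195-3p were 34.9, 29.5, 28.4, 160.1 and 76.7 CPM on day 1 and 464, 512, 513, 528 and 398 CPM at month 2, with even month 2 values and no overlap. For miR-15a-5p they were 11.3, 9.40, 7.10, 22.8 and 13.4 CPM and then 2.61, 4.02, 5.82, 4.09 and 2.07 CPM, also without overlap (-2.13 ± 0.39, adjusted p = 0.000187).

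Of the cluster on the X chromosome that holds miR-424 and miR-503, 4 of 6 entries fell and miR-424-3p rose (median -1.96). The shares over all miRNAs were 32.5% falls and 24.9% rises. With miR-424-5p, miR-542-3p fell, from 442, 962, 181, 2472 and 2049.7 CPM to 105, 126, 199.7, 103 and 139.8 CPM (-3.47 ± 0.61, adjusted p = 0.00015). Only day 1 replicate 3 was inside the month 2 range. In the X-linked miR-532/miR-660 cluster 4 of 8 fell and 1 rose. Of 9 entries 3 fell without day 1 replicate 3, with miR-500-5p at -0.42 and miR-502b-5p at -0.96 no longer called, from -1.01 and -1.74. Each of these calls was also lost without month 2 replicate 1 or 2, and that of miR-502b-5p without month 2 replicate 3 or 5. With library totals 0 fell, 2 rose and the median of -0.24 was 0.13.

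The miR-30 family is known to be low in dividing and high in differentiated cells. Of its 11 entries 4 fell and 3 rose, beside 32.5% and 24.9% of all miRNAs. The abundant miR-30a-5p was at 6005, 9005, 5169.7, 11577 and 10556 CPM on day 1 and at 1200.1, 1591, 5693, 1762 and 3777 CPM at month 2. Only month 2 replicate 3 reached the day 1 range (-2.07 ± 0.45, adjusted p = 0.000717). Levels of miR-30e-5p were 613, 627, 672, 1344 and 842 CPM and then 37.7, 60.8, 226, 83.3 and 179 CPM, without overlap (-3.34 ± 0.69, adjusted p = 0.000547). miR-30b-5p also fell, by 1.99 ± 0.38, and of the 3p arms miR-30d-3p fell, from 7.59 to 23.6 CPM on day 1 to 0.524 to 3.63 CPM at month 2, without overlap (-3.16 ± 0.49, adjusted p = 7.66e-05). The rises were the 3p arms of miR-30b (1.84 ± 0.38), miR-30c (1.55 ± 0.28) and miR-30f (1.68 ± 0.36).

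The DLK1-DIO3 cluster, whose miRNAs are made from the maternal chromosome and are known for high levels in fetal and placental tissue, had 23 falls and 5 rises among 44 tested entries, where 32.5% of all miRNAs fell and 24.9% rose. The median was -1.19, and 21 entries did not overlap, beside 38.8% of all miRNAs. The summed level went the other way, from 9014 to 23266 CPM on day 1 to 23507 to 30273 CPM at month 2. Most of the month 2 sum came from miR-127-3p, at 18928 to 23349 CPM. On day 1 miR-127-3p was at 2082 to 12662 CPM, with a mean of 8743 CPM beside a mean sum of 17700 CPM. Its abundant miR-411a-5p was at 1603, 1767, 2022, 1241 and 1897 CPM on day 1 and at 156, 153, 277, 304 and 366 CPM at month 2. The ages were far apart and each was even (-3.33 ± 0.53, adjusted p = 7.76e-05). Levels of miR-369-3p were 138, 173, 55.9, 123 and 225 CPM and then 14.2, 10.3, 18.1, 11.8 and 25.4 CPM (-3.51 ± 0.47, adjusted p = 3.79e-05), and miR-376c-3p went from 8.98 to 12.3 CPM on day 1 to 0.730 to 2.07 CPM at month 2 (-3.69 ± 0.44). Of miR-379-5p, the first gene of its group, the values were 3827, 3629, 2515, 2704 and 3632 CPM and then 835, 1098, 1448, 1126 and 1197 CPM. These did not overlap either (-1.95 ± 0.48, adjusted p = 0.00209). The fall of miR-381 was -3.32 ± 0.88 and -2.29 without day 1 replicate 3, still called.

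Those that rose in this cluster were miR-127-3p, miR-433, miR-485-5p, miR-485-3p and miR-323b. The steepest was miR-485-5p at 1.44 ± 0.36 (adjusted p = 0.00251). Calls of the others were less stable. miR-323b was at 1.39 ± 0.53 (adjusted p = 0.0322), a call lost on leaving out any of day 1 replicates 1 to 4 or month 2 replicates 1 to 3. miR-485-3p, at 2.75 to 8.45 CPM on day 1 and 13.6 to 35.8 CPM at month 2, was at 1.24 ± 0.50 (adjusted p = 0.0389) and 1.80 without day 1 replicate 3, and the call was lost on leaving out any other of the 10 libraries. miR-433 was at 1.165 ± 0.37 (adjusted p = 0.0119), a call lost without day 1 replicate 4 or month 2 replicate 2. Without day 1 replicate 3 the list had 3 rises and 23 falls among 45 entries, with miR-493-3p at -0.86 and not called, from -1.91 (a call also lost without month 2 replicate 1), and with library totals 5 rises and 16 falls.

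Among gonad and granulosa cell miRNAs 3 of 8 rose (miR-202-3p, miR-320-3p and miR-224-5p) and 2 fell (miR-21-5p and the 5p arm of miR-202). The shares over all miRNAs were 24.9% rises and 32.5% falls. The TGF-beta responsive miR-224-5p of granulosa cells was at 2267, 1503, 243, 1439 and 1719 CPM on day 1 and at 3309, 3135, 2911, 3065 and 2677 CPM at month 2. The ages did not overlap, but the rise of 0.89 ± 0.35 (adjusted p = 0.0382) was 0.69 and no longer called without day 1 replicate 3, and it was lost on leaving out any of the 10 libraries other than day 1 replicates 1 and 5. No entry of the germ cell and pluripotency list, the miR-302 and miR-371 families, was in the table as used here, so that list gave no marker of oocytes. The gonad list without day 1 replicate 3 had 4 rises and 2 falls, with miR-378-5p at 1.77 and miR-383 at 1.85, both called, from -0.13 and 1.26 with it, neither called. Leaving out month 2 replicate 4 gave 0.59 for miR-383.

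Markers of other cell types moved with age as well, and their part in the changes above was not tested. Their counts, here and below, stand beside 24.9% rises and 32.5% falls over all miRNAs. For endothelium, miR-126-5p was at 209, 311, 205, 558 and 406 CPM on day 1 and at 46.6, 37.1, 84.3, 27.0 and 70.1 CPM at month 2, without overlap (-3.12 ± 0.45, adjusted p = 6.22e-05), and miR-126-3p fell by 1.47 ± 0.42, with -1.02 and no call when library totals alone scaled the counts (adjusted p = 0.0599). Summed over both arms the level was 6084.5 to 11320 CPM on day 1 and 2682 to 5467 CPM at month 2. The red blood cell miR-451-5p was at 39.6, 45.6, 232, 87.9 and 37.4 CPM and then 27.9, 33.6, 22.1, 26.7 and 11.4 CPM. Replicate 3 was the highest, and the fall of 2.73 ± 0.69 was -1.22 without it, still called. The smooth muscle miR-143/miR-145 cluster had 2 falls of 4, with a sum of 94005 to 738573 CPM on day 1 and 62323 to 91401 CPM at month 2, and miR-145-5p was at 0.60 ± 0.34, not called. It was at 0.90 without day 1 replicate 3 and called (adjusted p = 0.0298), and with library totals at 1.12 and called (adjusted p = 0.0191).

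Striated muscle miRNAs fell in 3 of 5 tested entries, where 32.5% of all miRNAs fell. In all 10 libraries miR-208b and miR-499-3p were at 0. The list's sum went from 267 to 2302 CPM on day 1 to 254 to 451 CPM at month 2. In it miR-1 was at 208, 1068, 2128, 1583 and 1618 CPM and then 159.9, 334, 184, 275 and 189 CPM. Day 1 replicate 1 lay within the month 2 range, and the fall of 3.20 ± 0.72 (adjusted p = 0.00094) was -2.46 without replicate 3. Its reads can match miR-206, so that split is uncertain. The list had 1 rise and 2 falls without day 1 replicate 3, as miR-133a-5p was no longer called (-1.79, and -1.39 without it; also not called without month 2 replicate 2 or 4) and miR-133a-3p went from -0.31, not called, to a called 0.93. The stromal miR-199/miR-214 cluster, whose miR-199a and miR-199b reads are hard to tell apart, parted, with miR-214-3p up by 1.47 ± 0.31 and miR-199a-5p and miR-199b-5p down by 1.12 ± 0.37 and 1.77 ± 0.31 (5 entries, summed 7072 to 41421 CPM on day 1 and 17250.3 to 22706 CPM at month 2).

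Epithelial miRNAs, which here are the miR-183-96-182 cluster and the miR-200 family, fell in 3 of 7 entries (miR-141, miR-182 and miR-429). Without day 1 replicate 3 or with library totals 0 fell. The share of falls over all miRNAs was 32.5%. Reads of the near-identical members of the miR-200 family may be split unevenly. miR-200b was at 3125, 1129, 3151, 242 and 348 CPM on day 1 and at 217, 5991, 628, 197 and 489 CPM at month 2 (-0.82 ± 1.52, not called, and 0.24 without day 1 replicate 3), with month 2 replicate 2 the highest. The largest fall of the list at a mean of at least 10 CPM, miR-429, was at 41.9, 10.1, 43.1, 4.38 and 3.23 CPM and then 1.02, 7.34, 1.62, 0.292 and 2.07 CPM (-3.84 ± 1.57, adjusted p = 0.0425). It was -2.68 without day 1 replicate 3 and -5.06 without month 2 replicate 2, and the call was lost without day 1 replicate 3 or month 2 replicate 1, 3, 4 or 5. For miR-141 (-3.84 ± 1.57) the same 5 libraries each ended the call when left out, with -1.54 without day 1 replicate 3. The fall of miR-182 (-2.03 ± 0.76) was -1.78 and no longer called without day 1 replicate 3. Ciliated epithelium was represented by the miR-34/miR-449 family, with 0 calls among 5 entries. Its sum ran from 36.4 to 2168 CPM on day 1 and from 12.1 to 1461 CPM at month 2, and miR-34c-5p was at 1709 and 943 CPM in day 1 replicates 1 and 2, at 733 CPM in month 2 replicate 2 and at 4.09 to 96.8 CPM in the other 7 libraries.

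Leukocyte miRNAs had 3 rises and 1 fall among 9 entries, beside 24.9% and 32.5% of all miRNAs. Their sum was 394 to 2509 CPM on day 1 and 1953 to 3364 CPM at month 2. The lymphocyte miR-150 was at 67.2, 58.3, 32.1, 35.9 and 23.2 CPM and then 33.1, 576, 216, 346 and 254 CPM. Month 2 replicate 1 lay in the day 1 range, and the change of 2.34 ± 0.56 (adjusted p = 0.00165) was 1.72 without month 2 replicate 2. With it miR-155-5p rose by 1.44 ± 0.46, and miR-146a, induced by inflammatory signals, fell by 2.57 ± 0.41, from 9.59 to 30.9 CPM on day 1 to 2.10 to 6.39 CPM at month 2. Among neural and neuroendocrine miRNAs 4 of 6 fell, miR-9-5p by 1.78 ± 0.30 and miR-7-5p by 2.26 ± 0.48, and both arms of miR-129 rose (miR-129-5p by 2.15 ± 0.35). Of 3 liver miRNAs miR-192-5p and miR-194 fell (1.87 ± 0.40 and 1.78 ± 0.30). None of the 6 HOX-embedded entries and none of the 4 of the miR-26 family was called.

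Smaller families were read against the 24.9% of all miRNAs that rose and the 32.5% that fell. The miR-148/miR-152 family had 2 falls of 4, the miR-181 family 2 falls and 1 rise of 4 (miR-181b-5p by 1.34 ± 0.31), the miR-29 family 1 fall of 5, the miR-23/miR-27/miR-24 clusters 1 rise and 1 fall of 9, and the miR-130/miR-301 family 1 rise and 2 falls of 7. The fall in the miR-23/miR-27/miR-24 clusters, miR-24-3p at -0.86 ± 0.34, was -0.28 and no longer called without day 1 replicate 3, and was also not called without month 2 replicate 5. The single fall of the miR-29 family was miR-29b-3p, at 7.26, 9.04, 20.8, 7.43 and 14.01 CPM on day 1 and 1.02, 2.10, 1.76, 5.84 and 1.90 CPM at month 2. The ages did not overlap, and the change of -2.84 ± 0.64 (adjusted p = 0.00101) was -1.99 without day 1 replicate 3 and -3.71 without month 2 replicate 4. The median of the miR-130/miR-301 family was 0.16, and that of the miR-23/miR-27/miR-24 clusters was 0.11.

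**Figure D4:**
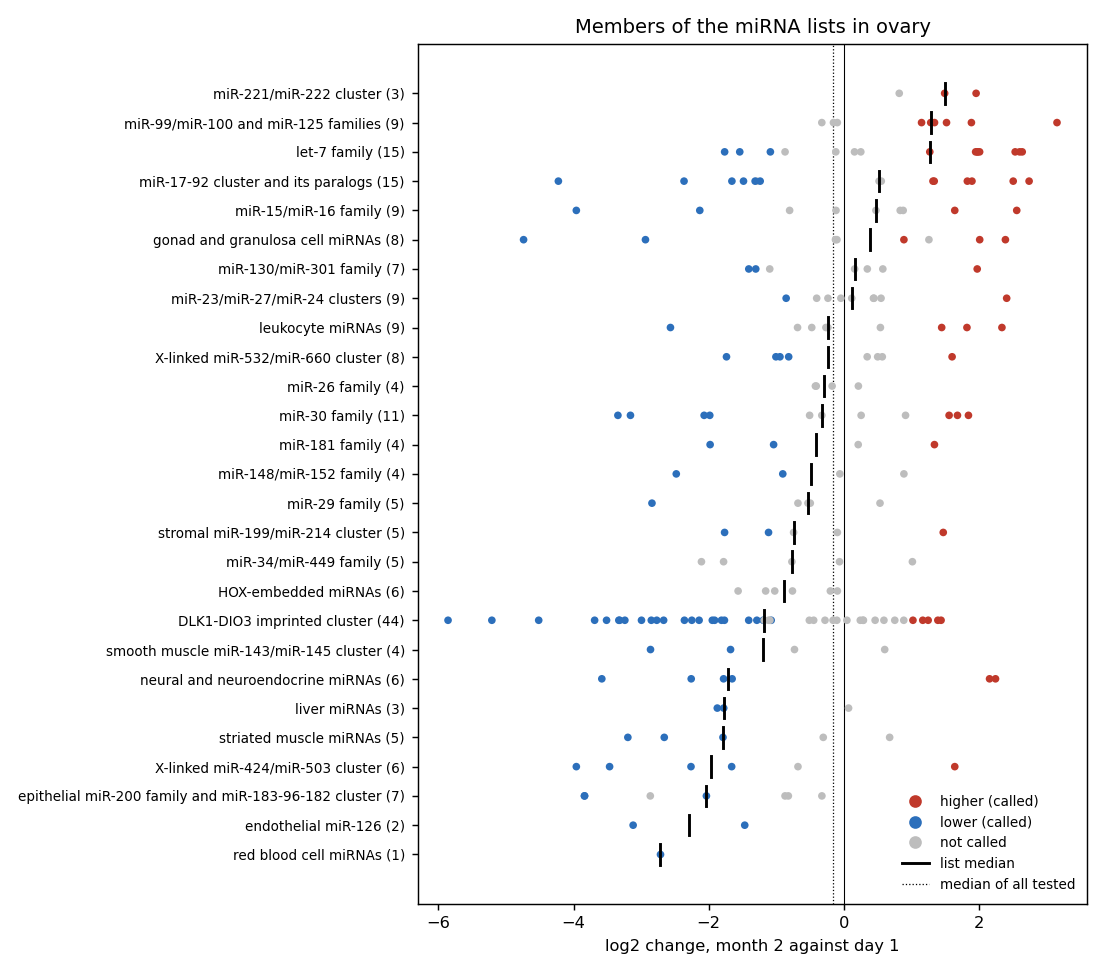
Each point is a tested entry of a miRNA list, placed by its log2 change from day 1 to month 2, with red for rises, blue for falls and grey for entries not called, while a black bar marks the list's median and the dotted line the median of all miRNAs tested. Lists near the top, such as the let-7 family (median 1.27), lie mostly to the right, and the DLK1-DIO3 cluster (median -1.19) spreads from -5.86 to 1.44.

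The levels at the later ages were set beside those of month 2 without a test, since both steps would rest on the same libraries. For miR-92a-3p the 5 libraries of month 4 held 8486 to 36360 CPM and those of month 6 held 23586 to 31616 CPM, beside 23299 to 41727 CPM at month 2. For miR-411a-5p the ranges were 138 to 672 CPM and 119 to 477 CPM, beside 153 to 366 CPM, and every later library lay below the lowest of day 1, at 1241 CPM. For miR-148a-3p month 4 held 21348 to 47307 CPM. At month 6 replicates 2 and 4 held 108252 and 128270 CPM, in the day 1 range, and the other 3 libraries 17342 to 28138 CPM. The same 2 libraries were the high ones for miR-101-3p, at 5489 and 6300 CPM against 294 to 834 CPM, and the low ones for let-7b-5p, at 8372 and 6577 CPM against 45528 to 66569 CPM.

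**Figure D5:**
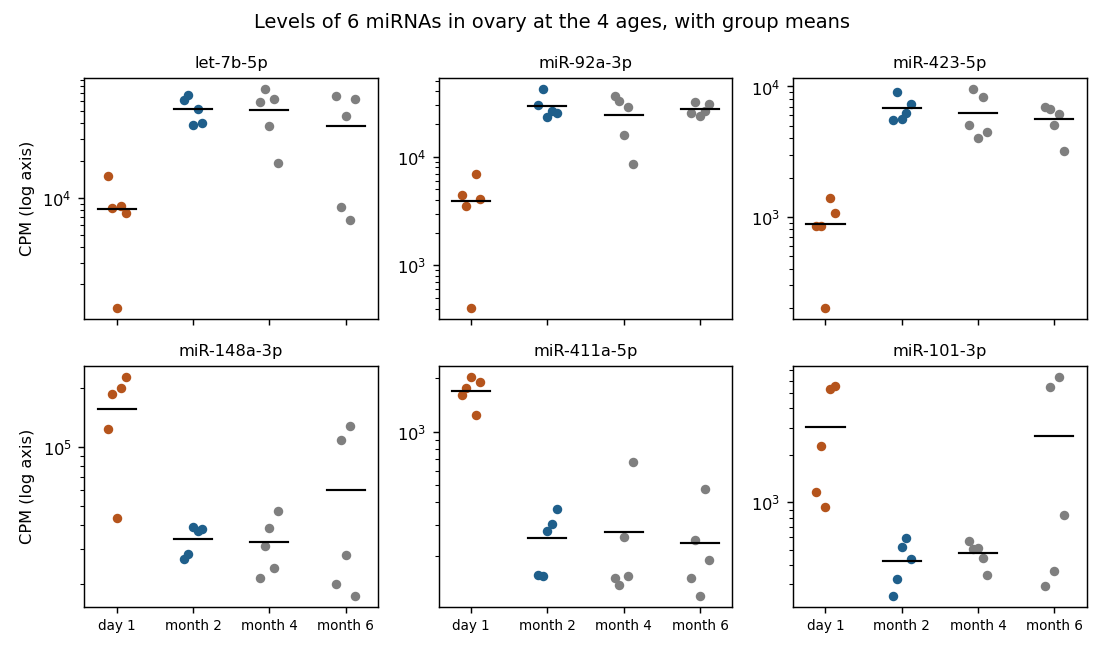
Levels of 6 miRNAs (CPM, log axis) are plotted for the 5 ovary libraries of each of 4 ages, with a line at each group mean. The day 1 points stand apart from month 2 in all 6 panels, and at month 6 replicates 2 and 4 lie near the day 1 levels of let-7b-5p, miR-148a-3p and miR-101-3p.

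Whether the change was particular to the ovary was asked by comparing it with that of the uterus over the same step. This was an interaction in a fit of all 40 libraries. Ovary and uterus libraries of an age carry the same individual numbers, so a pair may come from the same goat. The fit took all libraries as independent, and such pairing was not tested. No miRNA of 350 was called (0% by edgeR, with 47 at an unadjusted p under 0.05). The closest was miR-148b-3p, at 4046, 4827, 345, 5459.5 and 5107 CPM on day 1 and at 10031, 5635, 10666, 8426 and 6774 CPM at month 2 in ovary. In uterus it was at 2613 to 3216 CPM and then 1272 to 2470.0 CPM. All month 2 ovary libraries were above day 1 and all month 2 uterus libraries below it, and the ovary change exceeded that of the uterus by 1.83 ± 0.43 on the log2 scale (adjusted p = 0.0532). In the ovary fit its rise of 0.89 ± 0.39 was not called (edgeR adjusted p = 0.0605). Without day 1 replicate 3, the lowest library, that rise was 0.64, also not called. Next were miR-495-3p of the DLK1-DIO3 cluster, lower in ovary by 2.30 ± 0.59, and miR-99b-3p, higher by 1.77 ± 0.46 (adjusted p = 0.0572 for both).

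Of the 182 miRNAs called in ovary, the uterus change had the same sign in 178, 76 of the 79 rises and 102 of the 103 falls, against 90 of the 135 that were not called. The median size of the change of these 182 in the joint fit was 2.05 in ovary and 1.24 in uterus. The 182 were chosen by their ovary change, which favours a larger value there, so these medians do not rank the tissues. The arm ratios ran alike, with the same sign in uterus in 47 of the 50 called hairpins that reached 10 CPM there and in 28 of the 42 not called. For instance, the mean 3p share of miR-455 in uterus went from 29.6% ± 3.15 to 73.7% ± 25.9 (SD, n = 5). That of miR-30e went from 41.6% ± 5.12 to 73.5% ± 24.4 in uterus, beside 33.5% ± 11.9 to 77.6% ± 10.4 in ovary. The uterus libraries of month 2 were thus widely spread in both. With at least 10 CPM in 5 libraries as the filter, the interaction was called for 2 miRNAs, and it was called for 1 on leaving out ovary day 1 replicate 4 and for 1 on leaving out uterus month 2 replicate 1.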

How the data were processed

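Small RNA libraries of goat ovary and uterus were deposited as 1 table of whole-number counts per mature miRNA, made by the authors. The submitters' processing notes name cutadapt 1.16, Bowtie 1.0.1 and RSEM 1.3.0 without their roles, while neither the miRNA annotation, the genome build nor the treatment of reads matching several miRNAs is given in the sources used here. All 40 columns matched a library label, with 0 columns of no sample. How such reads were shared bears on near-identical miRNAs.

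Counts were scaled by TMM, filtered with filterByExpr and tested with edgeR 4.0.16 (quasi-likelihood, R 4.3.3) in a fit of all 20 ovary libraries, whose common biological coefficient of variation was 0.624. Standard errors are the log2 change over the root of F. Arm ratios, log2 of 3p over 5p counts with 0.5 added to each, were tested with limma 3.58.1 where the arms summed to at least 10 CPM and each reached 1 CPM on average. The interaction with uterus was fitted on 40 libraries. P-values were adjusted by Benjamini-Hochberg over each table, with a threshold of 0.05. Library-wide measures had two-sided exact permutation tests (scipy 1.17.1). Scripts were tested on simulated counts whose spread was smaller than in these libraries, which checks the code and not its error rates here. RefSeq's goat gene table (ARS1.2) matched 261 of 263 hairpin names and gave neighbours only.

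Named were the 14 largest rises and falls at 10 CPM or more, abundant miRNAs, members of fixed lists and the 6 largest arm shifts each way. The members and lists were chosen with earlier results of these data known. Alternatives were other scalings, filters, a DESeq2 1.42.0 test, a replicate block, fewer libraries and each library left out. Alternatives that drop libraries standing apart (ovary month 6 replicates 2 and 4 with or without day 1 replicate 3, and 7 libraries of both tissues) were chosen after seeing the data. Seed families and GC content were not analysed here.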

Additional observations from a re-analysis of the deposited data

Results flagged for a closer look

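A library was singled out where its gap to the nearest of the other 4 of its group exceeded Dixon's critical value. Only the named results and the library-wide measures were examined. Of 250 groups, 32 had such a library. Chance gives about 1 in 20 for independent, normally spread groups, but these share libraries, so that rate does not hold as it stands. Some miRNAs were described above because leaving out day 1 replicate 3 moved them, which favours flags on it. The library labelled ovary day 1 replicate 3 accounted for 18 of the 32. It was high for miR-143-3p (733103 CPM against 88444 to 156515), miR-218 (703 CPM), miR-381 (92.6 CPM), miR-451-5p (232 CPM), miR-378-5p (34.4 CPM against 3.21 to 8.62) and miR-141 (9.96 CPM). It was low for let-7g-5p (4417 CPM), let-7i-5p (10090.0 CPM against 49503 to 56644), let-7e-5p (431 CPM), let-7e-3p (6.97 CPM), miR-99b-5p (1236 CPM), miR-100-5p (6607 CPM) and miR-148b-3p (345 CPM). Its 3p share was low in miR-30e (12.9%) and miR-106b (63.7%). Its leading miRNA took 73.3% of counts, its 10 leading ones 91.0%, and its Shannon diversity was 2.12 bits.

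Day 1 replicate 4 was high for miR-202-5p (7818 CPM), miR-19b-3p (139 CPM), miR-504 (275 CPM) and miR-7-5p (1532 CPM). Day 1 replicate 1 stood apart in the 3p share of miR-424 (44.0%, high) and of miR-29b (66.3%, low). Month 2 replicate 2 was high for miR-200b (5991 CPM against 197 to 628), miR-429 (7.34 CPM), miR-34c-5p (733 CPM), miR-296-3p (564 CPM), miR-125a-3p (297 CPM) and the 3p share of miR-374b (0.488%). Month 2 replicate 4 was high for miR-29b-3p (5.84 CPM) and replicate 5 for miR-214-3p (2210.1 CPM).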

How the results depend on the processing

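The number of calls between the ages was 182 and stayed within 1.5 times that under every alternative run, from 146 with at least 10 CPM in 5 libraries to 210 without a filter. It was 153 with library totals alone, 188 by DESeq2's Wald test, 178 with the replicate block, 185 with only the 10 libraries and 177 to 184 with each library left out. Deviations of same-numbered libraries correlated with r of -0.131, 0.221, -0.129, 0.149 and 0.294, and 1 of 5 day 1 libraries correlated best with its own number. So few values cannot decide whether the numbers mark a shared block. With the replicate block, 108 of 120 named results kept direction and side of the threshold, 8 lost the call, 1 gained it and 3 turned. The block gave 50 arm calls, and 0 interaction calls. Arm calls numbered 32 of 58 hairpins when each arm had to reach 10 CPM, and 43 to 50 with each library left out; the cause was not tested beyond the fewer hairpins. Interaction calls numbered 2 with at least 10 CPM in 5 libraries and 0 to 1 with each library left out (1 without ovary day 1 replicate 4 and 1 without uterus month 2 replicate 1), and the cause was not tested. The difference in detected miRNAs ranged from -12.9 to -21.3 with each library left out. Of 2214 alternative values of 120 named results, 2072 kept direction and side of the threshold, 117 lost the call, 10 gained it and 15 turned. With library totals alone let-7i-5p was at 0.13, miR-10b-5p at 0.075, miR-99a-5p at 0.037 and miR-100-5p at 0.20. miR-200b, at -0.82 and between -3.10 and 0.24 with each library left out, was at 0.030 with the replicate block, 0.24 without day 1 replicate 3 and 0.21 without that library and ovary month 6 replicates 2 and 4. None of these was called in any of these fits. Also uncalled at first, miR-133a-3p and miR-378-5p (-0.31 and -0.13) were at 0.55 and 0.90 with library totals, 0.19 and 0.66 with the replicate block, and 0.97 and 1.82, both called, without day 1 replicate 3 and ovary month 6 replicates 2 and 4. With each library left out miR-133a-3p ran from -0.78 to 0.93 and miR-378-5p from -0.63 to 1.77, the upper values called and without day 1 replicate 3; the cause was not tested. The 2 alternatives that correct for GC content were not run, since no mature sequences were used here. Few counts limit miRNAs near 1 CPM.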
